A study of Glycine max with 12 samples.

Results

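The set described here holds the 150 probe sets of 37593 for soybean transcripts whose mean log2 level was higher by at least 1, a fold of 2, in plants carrying soybean aphids than in plants without them, in a susceptible cultivar and in a resistant cultivar alike. The array reads a transcript with a handful of short probes, called a probe set, and some genes have more than 1 of them. Both thresholds were met by 155 probe sets, and 5 of these were left out: 3 with a platform symbol of the NAC or GST families, and 2 of a cluster of NHL10 genes on chromosome 3. Members were selected on the measured infested minus uninfested differences of both cultivars, so those differences are given as descriptions. Counts of members called for them stand beside the share over all probe sets, and nothing is read from these counts.

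Plants recognize feeding insects and microbes through receptors at the cell surface, which set off a rise of calcium in the cytosol, protein kinase cascades and a burst of reactive oxygen. Calcium sensors, zinc finger, WRKY and ERF transcription factors, ubiquitin ligases and secretion proteins are among the first transcripts to accumulate in such a response, and many of the same transcripts also accumulate after cold, wounding or touch. Rag1 is a soybean locus that limits the growth of soybean aphid colonies.

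Leaves of 4 groups were compared on 12 Affymetrix Soybean Genome Arrays, 3 for each group: plants without and with aphids of SD01-76R, an aphid-susceptible line (S plants), and the same of the aphid-resistant line that the study calls LD16060 (R plants), which carries Rag1. Infested plants received 30 aphids at the V3 stage and were kept under nets for 21 days, and uninfested plants were handled the same way without aphids. RNA of each array came from the third trifoliate leaves of 2 pooled plants, so the spread between arrays is a spread between pools. The cultivars are related lines and not isogenic, so a difference between them cannot be assigned to Rag1. The infested plants were on the left of the growth chamber, the uninfested ones on the right, and colonies grew larger on S plants, so aphids and chamber side cannot be told apart, nor cultivar and aphid number in infested plants.

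Array medians of the deposited log2 values ran from 6.86 to 7.71 and were brought to about 7.28 by quantile normalization. The 6 leaf markers with a symbol, which encode photosystem and Rubisco activase proteins, had a median level of 9.90, and the medians of their group means ran from 9.41 to 10.15, with a median difference with aphids of −0.53 in S plants and −0.07 in R plants. Nodule, seed and root markers, 5, 8 and 3 genes, had median levels of 5.52, 5.28 and 5.80, close to the median of 5.36 to 5.43 for 60 control probe sets of the array. The 3′ minus 5′ difference of the actin probe sets, which reads RNA integrity, ran from 2.47 to 3.06 on infested S arrays and from 3.12 to 3.41 on uninfested S arrays, without overlap, and from 3.09 to 3.34 and from 2.95 to 3.27 on infested and uninfested R arrays, with overlap. The same difference of the ubiquitin probe sets was on the higher side with aphids, from 0.41 to 0.57 on infested and 0 to 0.42 on uninfested S arrays, and from 0.23 to 0.41 on infested and 0.06 to 0.24 on uninfested R arrays, with overlap in both cultivars. Their part in the differences below was not tested, and in whole leaves a change in cell composition and a change in RNA per cell cannot be told apart.

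Among the 150 members the log2 difference with aphids ran from 1.05 to 5.65 in S plants, with a median of 2.80, and from 1.00 to 2.85 in R plants, with a median of 1.32. Over all soybean probe sets the medians were −0.04 and −0.01. The difference was larger in S plants for 140 members and at least as large in R plants for 10, and the R difference was 51.1% of the S difference in the median member. A difference of at least 2 was reached by 118 members in S plants and by 11 in R plants. Of all soybean probe sets, 1335 were higher by at least 1 in infested S plants and 196 in infested R plants. The 155 that met both thresholds therefore made up 11.6% of the first list and 79.1% of the second.

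**Figure D1:**
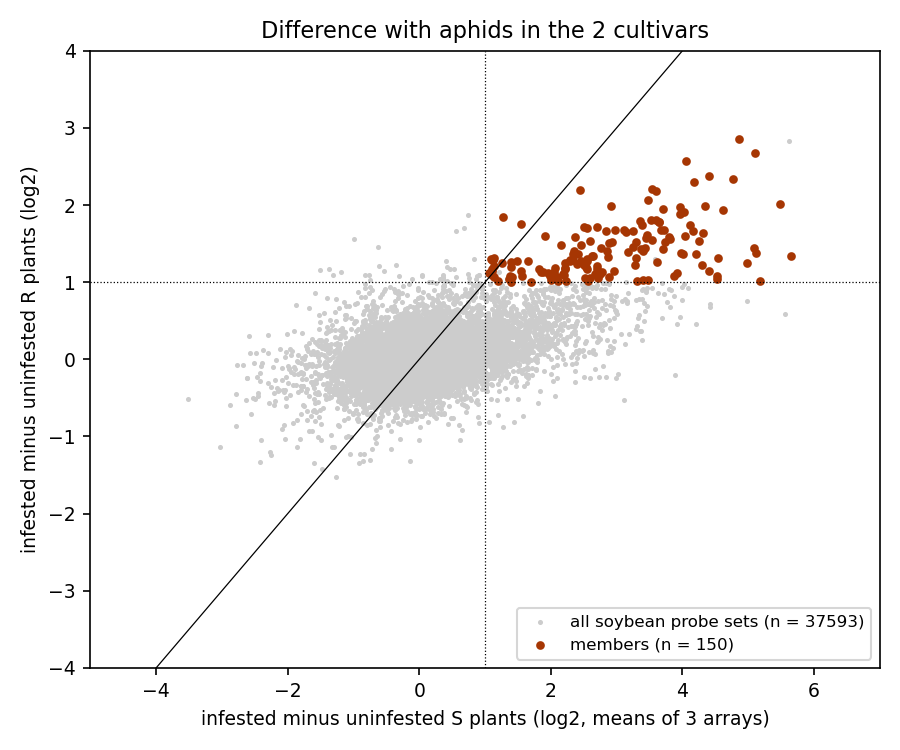
Log2 difference between infested and uninfested plants (means of 3 arrays each) in S plants (horizontal axis) and R plants (vertical axis) for 37593 soybean probe sets (grey) and the 150 members (brown). Dotted lines mark the threshold of 1 in each cultivar and the solid line equal differences; 140 members lie below that line.

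The comparison in S plants called 89 members higher at a Benjamini-Hochberg adjusted p under 0.05 (limma), where 2.51% of all soybean probe sets were called. A fit blocked on replicate number called 135 members, where 4.34% of all were called. The comparison in R plants called 0 members by limma, as it called 0% of all soybean probe sets. At an unadjusted p under 0.05 it had 68 members higher, against 1.19% of all, and 140 in the blocked fit, against 2.43%. With the cutoffs of the study, which allow a p of up to 1e-04 and a Storey q of up to 0.04 and ask for a fold of 2 or more, 36 members were called in S plants, against 0.92% of all, and 0 in R plants. Since these contrasts chose the members, nothing is read from the counts. All 3 infested S arrays lay above all 3 uninfested S arrays for 124 members, against 8.33% of all probe sets. In R plants this held for 43 members, against 2.77%, so that for most members the R arrays overlapped. In both cultivars at once it held for 38 members, against 0.83%.

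The level of the members also differed between arrays of one group. Their median level was 7.87, 8.75 and 7.07 on uninfested S replicates 1, 2 and 3, and 11.25, 10.78 and 10.61 on infested S replicates 1, 2 and 3. On R arrays it was 7.55, 7.72 and 6.81 without aphids and 8.26, 9.67 and 8.73 with aphids. The infested S arrays stood apart from all others, while uninfested S replicate 2 lay above infested R replicate 1 and, by a small margin, infested R replicate 3. Replicate 2 was the highest array of its group for 106 members in uninfested S, 105 in uninfested R and 109 in infested R plants, and for 32 in infested S plants.

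**Figure D2:**
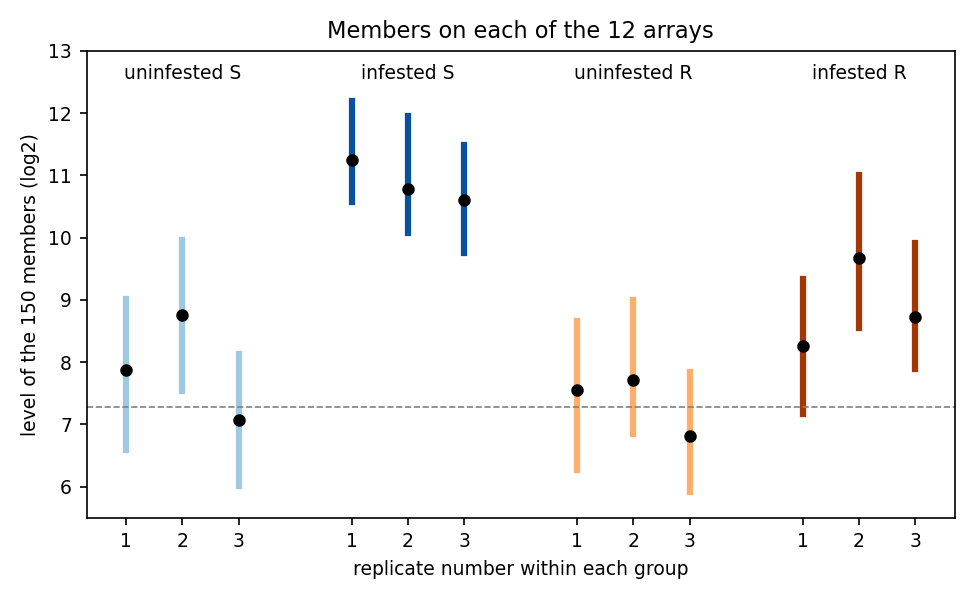
Level of the 150 members on each of the 12 arrays (log2, quantile normalized), with the median (point) and the range from lower to upper quartile (bar), by group and replicate number. The dashed line is the median of all soybean probe sets; the infested S medians of 10.61 to 11.25 lie above all others, and infested R replicate 2 is the highest R array at 9.67.

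The members fell into unequal patterns by this replicate. For 97 members replicate 2 was the highest array in uninfested S, uninfested R and infested R plants at once, a pattern found in 8.17% of all soybean probe sets, and their median differences with aphids were 3.38 in S and 1.44 in R plants. For 25 members replicate 2 was instead the lowest array in the same 3 groups, found in 8.63% of all probe sets, with median differences of 1.66 and 1.21. The remaining 28 members had medians of 2.32 and 1.23. The R differences depended on single arrays: without infested R replicate 2 the rule selected 103 probe sets, 73 of them among the 150, and without uninfested R replicate 3 it selected 110, 94 of them among the 150. Without infested R replicate 1, the lowest infested R array for 102 members, it selected 230, 130 of them among the 150. In all, 38 members met both thresholds whichever of the 12 arrays was left out.

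A platform symbol was listed for 1 gene on 44 members and for several genes on 2, and 104 had none; all 44 genes matched RefSeq by gene ID with the same symbol. The study's gene table named 59 members, so that 93 had a name from at least 1 source and 57 had none. That table lists probe sets that differed in S plants on these same arrays, so its names are not evenly spread over the members. A role could be given to 50 members, which follow by role, with levels in the order of replicates 1, 2 and 3.

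Transcription factors and zinc finger proteins were the largest role with 11 probe sets of 9 genes, and their median differences were 3.52 in S and 1.34 in R plants. The member with the largest smaller-of-both difference was Glyma.03g173300, which encodes a C2H2 zinc finger protein, a family that holds many stress-induced repressors in Arabidopsis. Its level was 6.36, 9.97 and 5.60 on uninfested S arrays and 12.15, 12.10 and 12.26 on infested S arrays, and 6.72, 8.42 and 5.54 on uninfested R and 7.98, 11.45 and 9.81 on infested R arrays. Infested S arrays were almost equal, while replicate 2 was highest in the other groups and infested R replicate 1 lay below uninfested R replicate 2. The difference with aphids was 4.86 in S and 2.85 in R plants (SE 1.09). Another C2H2 gene, Glyma.15g040700, read 7.48, 9.61 and 7.21 and 11.85, 11.20 and 11.86 on uninfested and infested S arrays, and 8.16, 8.80 and 6.67 and 9.33, 10.48 and 10.44 on uninfested and infested R arrays. For this gene the infested arrays lay above the uninfested arrays in both cultivars, with differences of 3.54 and 2.21.

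SCOF-1, a cold-inducible C2H2 zinc finger protein of soybean, was read by 3 members. The first of them had 8.11, 10.48 and 7.63 on uninfested S, 12.95, 12.79 and 11.26 on infested S, 8.0, 9.27 and 7.02 on uninfested R and 9.14, 11.75 and 9.94 on infested R arrays. S arrays with and without aphids did not overlap and R arrays did, through infested replicate 1. Its differences were 3.60 and 2.18, those of the second 3.47 and 2.07, and those of the third 3.52 and 1.81. The 3 probe sets report on 1 gene and are not separate genes.

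The largest S difference of any member belonged to LOC100820426, annotated as an ERF, a factor of the ethylene response family. Its S arrays read 5.11, 5.43 and 4.82 without and 11.27, 11.49 and 9.55 with aphids, and its R arrays 4.97, 5.40 and 4.97 and 5.31, 8.74 and 5.31. Uninfested means lay at or under the control level in both cultivars, so the S difference of 5.65 is measured from background. In R plants the mean difference of 1.34 came from replicate 2, and without that array it was 0.20. DREB1-like, a CBF/DREB factor that binds the dehydration response element, read 4.87, 5.76 and 5.17 on uninfested and 11.21, 10.45 and 9.67 on infested S arrays, and 4.77, 6.96 and 5.06 and 5.44, 8.07 and 6.34 on R arrays. Its uninfested S mean was at the control level, the difference was 5.18 in S and 1.02 in R plants, and the R arrays overlapped. The GRAS family gene Glyma.07g266500 was higher by 3.40 and 1.03 on the member probe set and by 2.88 and 0.5 on another. On the member probe set R arrays read 8.19, 8.11 and 7.73 without and 8.25, 10.05 and 8.82 with aphids. A probe set of the WRKY gene Glyma.08g021900 stayed in the set because no platform symbol is listed for it, with differences of 3.47 and 1.03. Another probe set of that gene had 3.88 and 0.82.

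Of the probe sets with the 6 largest smaller-of-both differences, 3 match the Arabidopsis protein At4g29780, for which the study's gene table gives no function. The first of these read 5.89, 9.26 and 5.32 on uninfested and 12.25, 12.31 and 11.24 on infested S arrays, 5.71, 7.44 and 5.23 on uninfested R and 6.92, 11.02 and 8.44 on infested R arrays. Replicate 2 was the highest array in each group, and infested R replicate 1 fell among the uninfested R arrays. Differences of this probe set were 5.11 and 2.67, of the second 4.77 and 2.34, and of the third 4.17 and 2.30. For the third alone the R arrays did not overlap, by 7.69 on the lowest infested against 7.66 on the highest uninfested array. The other leading probe sets were Glyma.06g135900, a hypothetical protein, with 4.41 and 2.38, and a probe set without a name, with 4.05 and 2.58.

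Calcium signaling was represented by 5 genes, with median differences of 2.56 and 1.17. Glyma.04g194800 encodes an EF-hand protein, the fold by which calmodulin and its relatives bind calcium. It read 6.07, 6.58 and 6.24 on uninfested and 8.82, 8.60 and 9.10 on infested S arrays, and 6.25, 6.85 and 6.16 and 8.11, 7.75 and 8.52 on uninfested and infested R arrays. The differences were 2.54 and 1.71, and their SE of 0.24 lay under the lower quartile of 0.50 for the members. Glyma.04g136200, similar to a calmodulin-like regulator of gene silencing in tobacco, had 5.32, 7.57 and 5.14 and 10.61, 10.32 and 10.13 on S arrays and 5.93, 6.9 and 5.14 and 6.99, 9.0 and 7.96 on R arrays, without and with aphids. The groups did not overlap in either cultivar, and the differences were 4.34 and 1.99. Glyma.04g136600, similar to the calmodulin-like protein CML38, had 3.92 and 1.12, Glyma.02g245700, calmodulin-related, 2.56 and 1.17, and the EF-hand gene Glyma.18g260700 1.96 and 1.12.

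Kinases and a phosphatase made up 5 probe sets of 4 genes, with median differences of 2.39 and 1.19. A probe set that matches a protein kinase and has no gene name stood at 10.78, 11.13 and 9.52 on uninfested and 13.08, 12.80 and 12.72 on infested S arrays, and at 9.04, 8.74 and 8.03 and 9.29, 10.47 and 9.75 on R arrays. Infested R arrays lay above uninfested R arrays and within or below the range of uninfested S arrays. The PP2C phosphatase gene Glyma.14g195200, of a family that counters kinase signaling, differed by 4.01 and 1.36, and Glyma.12g002400, similar to cytokinin-regulated kinase 1, by 3.88 and 1.08. For both genes only infested R replicate 2, at 10.95 and 8.53, lay above all uninfested R arrays, which reached 8.24 and 6.33. SIK2, a receptor-like kinase, behaved differently among arrays: its first probe set read 10.20, 8.63 and 9.21 and 11.34, 10.12 and 10.77 on S arrays and 8.84, 7.51 and 9.18 and 10.73, 8.83 and 9.55 on R arrays. Replicate 2 was the lowest array of every group, the groups overlapped in both cultivars, and the differences were 1.40 and 1.19. The second SIK2 probe set had 1.10 and 1.16.

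The role of elicitor-induced and defense proteins held 8 probe sets of 7 genes, with median differences of 3.75 and 1.41. It counts in a probe set described as salt responsive protein 2, with 4.61 and 1.94. It also counts in Glyma.04g178500, annotated as similar to UVI1, with 2.34 and 1.37. Those descriptions name neither an elicitor nor a part in defense. Syringolides are elicitors made through a bacterial avirulence gene and perceived by soybean. Glyma.18g042100, syringolide-induced protein 13-1-1, read 6.07, 8.34 and 5.73 and 11.45, 10.66 and 10.38 on S arrays and 6.10, 7.63 and 5.72 and 6.62, 9.95 and 8.09 on R arrays, without and with aphids. Infested R replicate 1 overlapped the uninfested R arrays, and the differences were 4.12 and 1.74. A relative, Glyma.14g212200, had 4.53 and 1.04, and Glyma.06g020800, syringolide-induced protein 14-1-1, 4.99 and 1.24, the latter from an uninfested R mean under the control level. R arrays of Glyma.06g020800 read 5.40, 5.42 and 5.01 without and 5.47, 8.24 and 5.86 with aphids. They did not overlap, but infested replicate 2 stood well above the rest. For Glyma.14g212200, R arrays read 5.83, 6.49 and 5.80 without and 5.83, 8.95 and 6.46 with aphids. Only infested replicate 2 thus lay above its uninfested R arrays. Glyma.13g067900 is similar to a tobacco transcript rapidly elicited by recognition of the fungal effector Avr9 through Cf-9, and it had 6.23, 7.12 and 5.54 on uninfested and 7.16, 8.60 and 8.36 on infested R arrays, which did not overlap. HS1pro1, named after a beet gene for nematode resistance, read 7.26, 9.93 and 7.30 and 11.12, 11.19 and 10.48 on S arrays and 7.17, 8.85 and 6.99 and 7.66, 10.91 and 8.78 on R arrays. Its differences were 2.77 and 1.45, and infested R replicate 2 reached the level of infested S plants.

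Ubiquitin ligases and F-box proteins, which mark other proteins for degradation, were read by 4 probe sets of 3 genes, with median differences of 3.06 and 1.39. The RING zinc finger genes Glyma.12g060700 and Glyma.13g338400 differed by 3.44 and 1.57 and by 2.77 and 1.13. The F-box gene Glyma.10g169300 differed by 3.25 and 1.46 on one probe set and by 2.88 and 1.32 on the other.

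Secretion and the cell wall were represented by 5 probe sets of 4 genes, with median differences of 2.83 and 1.21. Glyma.02g195400 is similar to the Arabidopsis syntaxin PEN1, which acts in secretion at sites of attempted fungal entry. It read 9.61, 9.81 and 8.52 and 12.34, 12.01 and 11.69 on S arrays, and 8.88, 9.0 and 8.29 and 9.24, 10.70 and 9.85 on R arrays, without and with aphids. The groups did not overlap in either cultivar. An expansin-like gene, Glyma.11g096700, of a family related to wall-loosening proteins, was read by 2 members, of which one had 8.21, 7.74 and 6.69 and 10.77, 10.93 and 9.68 on S arrays and 7.96, 7.45 and 5.78 and 9.13, 8.83 and 9.20 on R arrays. Its infested R arrays were close together, and the differences were 2.91 and 1.99. The other probe set is assigned to several genes by the platform and had 2.83 and 1.66. The extracellular dermal glycoprotein gene Glyma.02g148200 differed by 4.52 in S and 1.08 in R plants, and a matrixin-type peptidase gene, Glyma.01g037200, by 2.71 and 1.17. For the glycoprotein gene, R arrays read 5.65, 6.33 and 5.57 without and 5.62, 8.97 and 6.20 with aphids. Only infested replicate 2 thus lay above the uninfested R arrays. Its probe sets that were not members had R differences of 0.30, 0.73 and 0.32.

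Transport and metabolism held 5 genes with median differences of 3.74 and 1.52. The mitochondrial carrier genes Glyma.04g092100 and Glyma.02g040700, whose products move metabolites across the inner mitochondrial membrane, differed by 3.74 and 1.53 and by 2.46 and 1.49. A probe set of Glyma.02g040700 that was not a member had 2.52 and 0.71. Glyma.16g178000 and Glyma.16g178500, both annotated as heavy metal transport or detoxification proteins, differed by 2.92 and 1.52 and by 4.21 and 1.36. The Nudix hydrolase gene Glyma.05g238100, of enzymes that cleave nucleoside diphosphate derivatives, differed by 4.16 and 1.67.

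Cold and heat stress proteins were 4 genes of uneven pattern. Glyma.03g015800 is counted here only by the annotation of its Arabidopsis match, which names a response and not what the protein does. Glyma.03g015800, which matches Arabidopsis At2g45760, annotated with the response to temperature, read 6.09, 6.44 and 5.23 and 11.76, 10.78 and 11.67 on S arrays and 5.14, 5.60 and 5.11 and 6.25, 8.01 and 7.65 on R arrays, without and with aphids. The groups did not overlap in either cultivar, the uninfested R mean was at the control level, and the differences were 5.48 and 2.02. SRC2, a cold-regulated protein with a lipid-binding domain, read 8.21, 8.80 and 7.85 and 11.46, 10.48 and 9.80 on S arrays and 8.63, 8.91 and 8.38 and 9.83, 10.43 and 9.53 on R arrays, with differences of 2.29 and 1.29 and no overlap in either cultivar. SRC1, another cold-regulated transcript, had 1.05 and 1.12 on the member probe set, with overlapping arrays in both cultivars, whereas its brighter probe set, at a mean level of 13.42, had 0.00 and 0.11. HSP90A1, a chaperone, had 1.14 and 1.32, and its uninfested S arrays alone ran from 6.34 to 9.48.

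**Figure D3:**
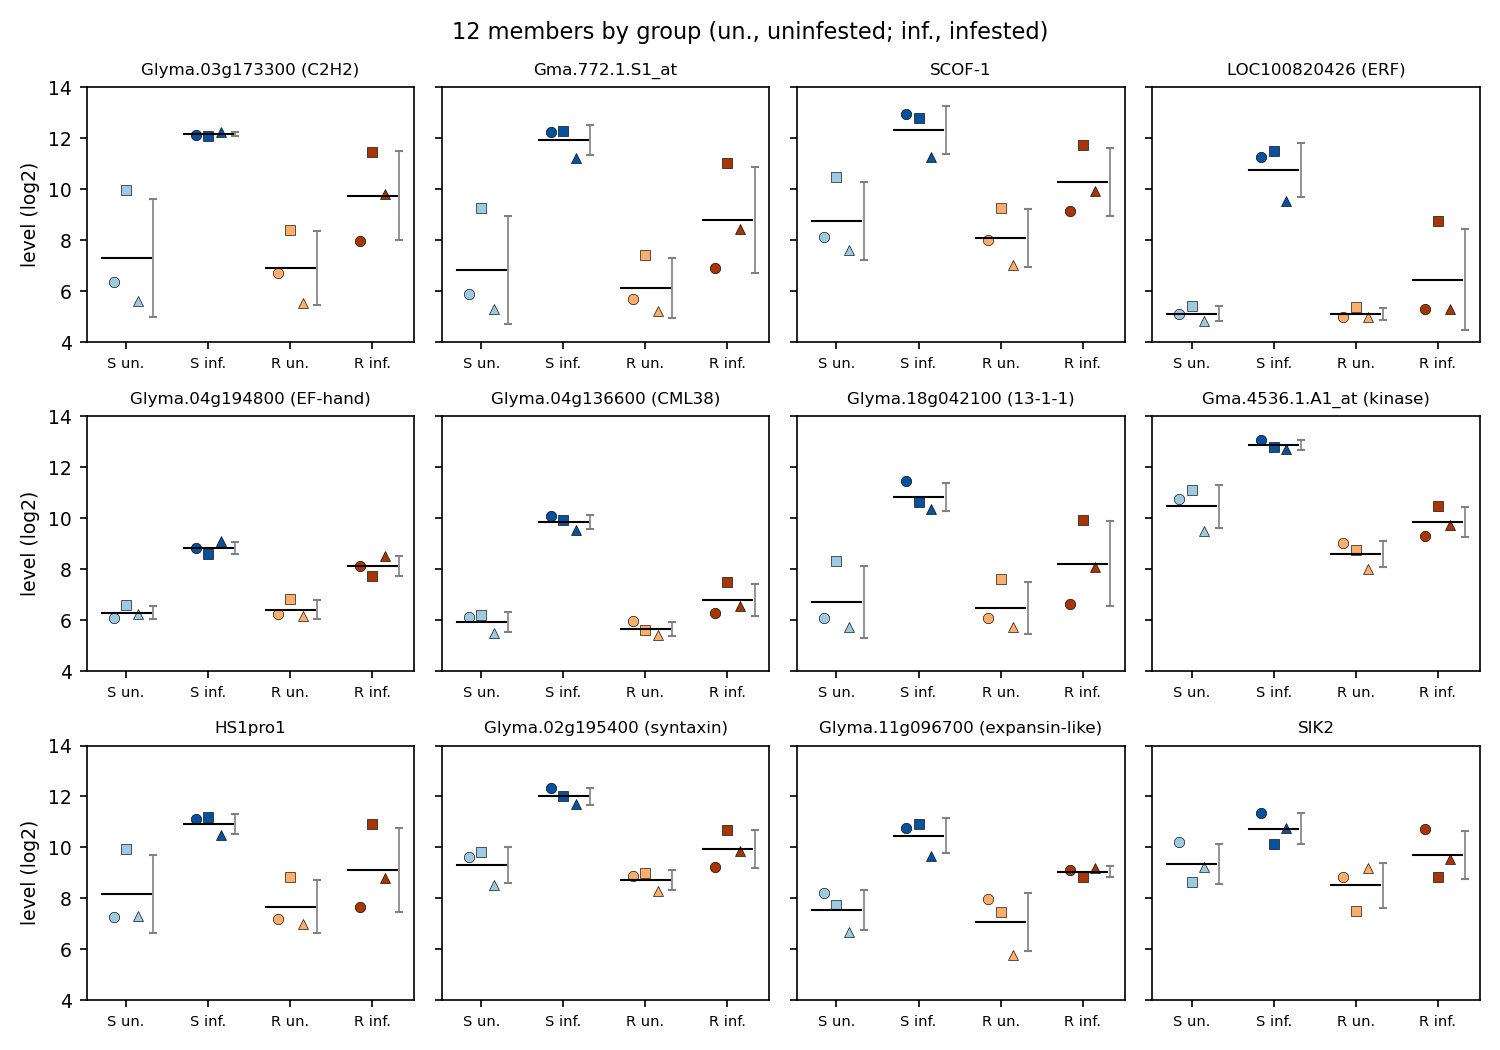
Levels (log2, quantile normalized) of 12 members in uninfested and infested S and R plants; circles, squares and triangles are replicates 1, 2 and 3, black lines group means and grey bars 1 SD (n = 3 arrays). Infested S arrays stood apart from uninfested S arrays in every panel but that of SIK2, while infested R arrays overlapped uninfested R arrays for 7 of the 12.

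Members with no role added further strong differences. Glyma.15g142200, of unknown function, read 6.04, 5.11 and 5.02 and 10.35, 10.77 and 10.41 on S arrays and 4.97, 5.93 and 5.27 and 7.10, 6.91 and 6.30 on R arrays, from uninfested means at or under the control level. Neither cultivar's groups overlapped, and the differences were 5.13 and 1.38. Glyma.20g125500, also of unknown function, had 5.09 and 1.44. Unlike the leading genes, a probe set without a name had 13.29, 7.69 and 12.59 on uninfested S and 13.76, 13.43 and 13.72 on infested S arrays, and 10.96, 7.74 and 11.37 and 12.39, 11.53 and 12.71 on R arrays. Its uninfested level was low on replicate 2 alone in both cultivars, and its differences were 2.44 and 2.19.

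The 10 members with an R difference at or above the S difference had small differences in S plants. One of them, without a name, read 7.86, 8.95 and 7.7 and 9.51, 10.07 and 8.72 on S arrays, which overlapped, and 8.20, 7.66 and 7.15 and 9.87, 9.08 and 9.62 on R arrays, which did not, for differences of 1.27 and 1.85. Another, also unnamed, had 8.49, 9.09 and 7.90 and 10.29, 10.45 and 9.36 on S arrays and 8.86, 7.95 and 8.20 and 10.59, 9.48 and 10.19 on R arrays, with no overlap in either cultivar and differences of 1.54 and 1.76. Others of this group were SIK2 on its second probe set only, SRC1, HSP90A1, LOC100527232 and LOC100802459. For LOC100802459 the S difference of 1.10 rested on uninfested S replicate 3, at 6.5 against 10.83 and 10.56 on the others, and was −0.30 without that array. At the threshold, the 5 members just inside had smaller differences of 1.002 to 1.016 and the 5 probe sets just outside 0.987 to 0.997, so membership there is set by amounts far under the replicate spread.

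Several members could be set beside other probe sets of their genes. Of 27 genes with more than 1 probe set, 8 had 2 or more members. The 29 probe sets of these genes that were not members had S differences of 0.00 to 3.99, with 16 at least 1, and R differences of −0.10 to 1.09, with 26 above 0 and 1 at least 1.

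Gene families that these roles come from were also read over the whole array by platform symbol, with 1 probe set per gene, the one of highest mean level. Over all soybean probe sets 2.51% were called higher in S plants and 2.06% had an unadjusted p under 0.05 in R plants in either direction, against which the counts below, of short lists, stand. Of 9 calmodulin and calcium-dependent kinase genes, 2 were higher in infested S plants at an adjusted p under 0.05 (limma), SCAM-4 by 1.79 and SCAM-5 by 0.85, and the median of the list was 0.24 in S and 0.10 in R plants. Of 18 immune signaling genes 2 passed in S plants, NDR1b by 2.36 and MPK4B by 0.69, with medians of 0.26 and 0.08. NDR1 of Arabidopsis is a membrane protein needed by a class of resistance proteins, and MPK4 is a MAP kinase. Of 14 receptor-like kinase genes 1 passed, SIK1 by 2.39, and its R difference was −0.05. Of 3 syringolide-induced genes 2 passed, B13-1-1 by 3.41 and B13-1-9 by 5.62 and R differences of 0.73 and 2.83, the latter gene being one of the NHL10 cluster that was left out. Of 13 genes of the cold and dehydration response 3 passed, the members DREB1-like, SCOF-1 and SRC2, with list medians of 0.22 and 0.07. Since those 3 were chosen for their S difference, their calls repeat the selection, and none of the other 10 genes passed. Of 16 heat shock factors and proteins 0 passed, with medians of 0.03 and 0.03. No gene of these lists was called lower in S plants, and 0 were called in R plants by limma. At an unadjusted p under 0.05, R plants had 1 gene of immune signaling, 1 of the syringolide-induced list, 2 of the cold and dehydration response and 0 of the heat shock list. In S plants 16.6% of all probe sets had such a p in either direction. The lists had 2 calcium, 7 immune signaling, 4 receptor-like kinase, 3 syringolide-induced, 4 cold and dehydration and 0 heat shock genes there.

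The difference between cultivars, averaged over uninfested and infested plants, comes from the same 12 arrays as the differences that chose the members. It would be free of their replicate error only with equal spread with and without aphids, whereas the median SD of the members was 1.15 on uninfested and 0.43 on infested S arrays, and 0.87 on uninfested and 1.02 on infested R arrays (n = 3 arrays each). Its counts and adjusted p-values are therefore given as values of the fit beside the share over all probe sets, and not as a test apart from the selection. By limma over all soybean probe sets, 21 of 150 members were lower in R plants at an adjusted p under 0.05, where 1.20% of all probe sets were called lower, and 0 were higher, where 0.274% were called. With the replicate number as a block, by which arrays of the cultivars pair, 76 members were lower, against 3.31% of all, and 0 were higher, against 0.91%, and all 21 were among the 76. At an unadjusted p under 0.05 without the block, 90 members were lower, against 6.73% of all. The count also moved with single arrays: it was 9 when uninfested S replicate 1 was left out, 7 without infested S replicate 1, 10, 11 and 6 without uninfested R replicates 1, 2 and 3, and 7, 45 and 8 without infested R replicates 1, 2 and 3, and 6 members passed whichever array was left out. The average takes in part of the gap between the S and R differences with aphids, so it is not the level before infestation alone.

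The cultivar difference in uninfested plants had a median of −0.36 over the members and was negative for 129, against 48.0% of all probe sets. In infested plants the median was −1.95 and 147 were negative, against 42.3% of all. These values share arrays with the differences that chose the members and are given without a test. The 1180 probe sets that were higher by at least 1 in S plants and by less in R plants had medians of −0.18 and −1.48, and 24.4% of them were lower in R plants by the fitted average, against 14% of the members, so a lower level in R plants was not confined to the members.

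The protein kinase match whose levels are given above was lower in R plants by an average of −2.45 ± 0.29 (SE, adjusted p = 0.002), −1.87 in uninfested and −3.03 in infested plants. Glyma.01g202200, of unknown function, read 6.59, 6.12 and 5.49 and 10.75, 9.80 and 10.54 on S arrays and 5.89, 5.64 and 5.14 and 6.52, 6.64 and 7.19 on R arrays, without and with aphids, and averaged −2.04 ± 0.23 (adjusted p = 0.0014). Its uninfested groups overlapped and its infested groups did not. The other members that passed whichever array was left out were Glyma.15g142200 (−1.87, adjusted p = 0.0023), Glyma.04g136600 (−1.68, adjusted p = 0.0029), Glyma.03g015800 (−2.37, adjusted p = 0.0038) and LOC100500561 (−1.36, adjusted p = 0.0058). R minus S in uninfested and infested plants was −0.51 and −3.58 for Glyma.01g202200. It was −0.28 and −3.08 for Glyma.04g136600 and −0.64 and −4.1 for Glyma.03g015800.

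For LOC100500561 the cultivars differed about as much without aphids as with them: it read 7.71, 7.22 and 6.86 and 9.24, 8.12 and 8.90 on S arrays and 6.21, 6.04 and 5.78 and 7.35, 7.19 and 7.32 on R arrays, and R minus S was −1.26 in uninfested and −1.47 in infested plants. By contrast, Glyma.15g142200 had 0.00 in uninfested and −3.74 in infested plants. The widest average, −3.24 ± 0.66 (adjusted p = 0.033), belonged to a probe set without a name, which read 11.39, 7.83 and 10.35 and 12.47, 9.01 and 12.17 on S arrays and 6.68, 6.34 and 7.30 and 8.16, 7.03 and 8.25 on R arrays. Replicate 2 was the lowest array of each group there, and the S and R arrays did not overlap in either condition.

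The remaining 14 members with an adjusted p under 0.05 for the average held Glyma.02g195400, the PEN1-like syntaxin (−1.34, adjusted p = 0.035), and Glyma.07g266500 of the GRAS family (−1.49, adjusted p = 0.015). They also held the EF-hand gene Glyma.18g260700 (−1.30, adjusted p = 0.02) and Glyma.04g178500, annotated as similar to UVI1 (−1.57, adjusted p = 0.034). The Nudix hydrolase gene Glyma.05g238100 (−1.45, adjusted p = 0.038) and the F-box gene Glyma.10g169300 on 1 of its probe sets (−1.67, adjusted p = 0.027) were among them. R minus S in uninfested and infested plants was −0.59 and −2.09 for the syntaxin gene and −0.30 and −2.68 for the GRAS gene. It was −0.88 and −1.72 for the EF-hand gene and −1.08 and −2.06 for Glyma.04g178500. For the Nudix and F-box genes it was −0.21 and −2.7 and −0.89 and −2.45. Each gap was wider with aphids. The other 8 have no known function here: Glyma.02g035200, Glyma.12g049300, Glyma.16g039800, 4 probe sets without a name and 1 that the platform assigns to several genes, with averages of −1.94 to −0.90. The zinc finger genes that led the set by size, Glyma.03g173300 (−1.42, adjusted p = 0.51) and Glyma.15g040700 (−0.89, adjusted p = 0.46), had an adjusted p above 0.05. So did SCOF-1 on its first probe set (−1.35, adjusted p = 0.37), for which the fit with the replicate block gave an adjusted p of 0.034.

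**Figure D4:**
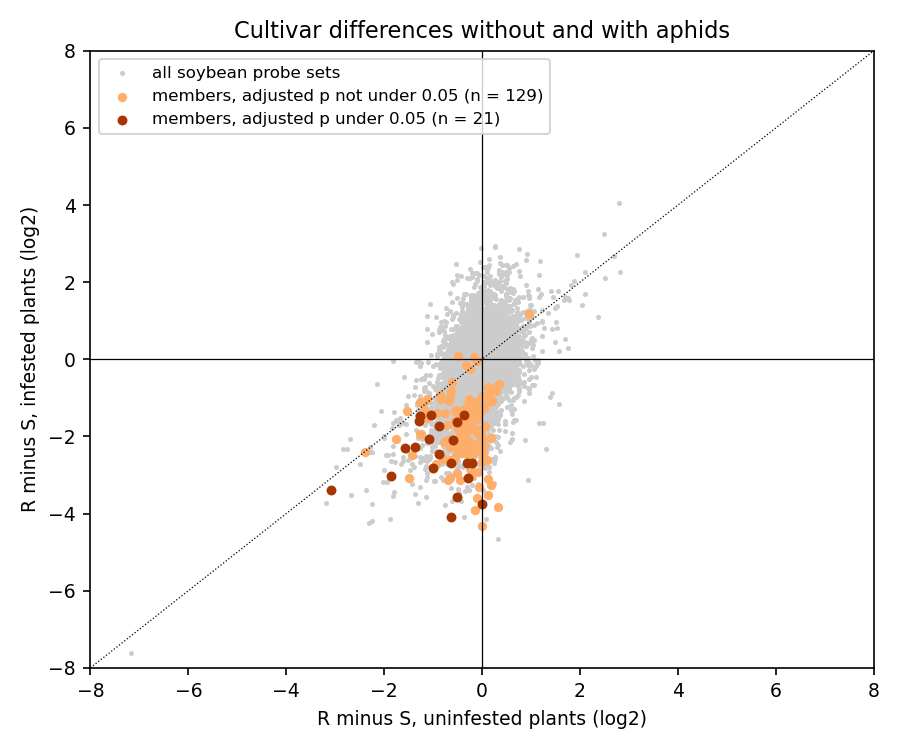
R minus S difference (log2, means of 3 arrays each) in uninfested plants (horizontal axis) and infested plants (vertical axis) for all soybean probe sets (grey) and for members with an adjusted p under 0.05 for the average of both (brown, n = 21) or not (orange, n = 129). Solid lines mark 0 and the dotted line equal differences; 147 members lie below 0 on the vertical axis, with a median of −1.95.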

How the data were processed

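RNA of the third trifoliate leaves of 12 pools of 2 plants was hybridized to 12 arrays. The authors deposited 1 table of log2 values, 37653 rows, of which 60 are array controls. The Methods name GCRMA and the labels' processing notes name RMA, GCRMA and limma, without versions. In the deposited log2 table, however, 2 to the power of the value was whole (within a relative 1e-06) for 99.6% of entries and array medians differed, so no scaling between arrays was visible. The 37593 soybean rows were therefore quantile normalized; no background was subtracted, so differences of dim probe sets can be understated.

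Groups were taken from the sample titles. A linear model with 1 mean per group over all 12 arrays was fitted with limma 3.58.1 in R 4.3.3 (empirical Bayes), with Benjamini-Hochberg adjustment over all soybean probe sets, and was tested on simulated data. The study's cutoffs used Storey q-values. Members, role lists and marker lists were chosen with earlier results of these data known. Named genes are the 12 members with the largest smaller difference, the 8 largest in S and in R plants, the 8 largest and the 8 smallest gaps between them, those with a cultivar effect, those next to the threshold, and up to 6 per role. The control level is the median of the 60 control rows after quantile normalization of all rows. Platform symbols (an older annotation) and the gene names of the study's supplementary table were used, and RefSeq only to check symbols; no sequence and no promoter motif was analysed here. Columns of fold changes and p-values in that table were not used.

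Deviations from group means of arrays with the same replicate number correlated by 0.29 to 0.48 between uninfested cultivars, 0.17 to 0.42 between infested cultivars and 0.13 to 0.36 within S plants, but by −0.12 to 0.49 within R plants. Arrays with different numbers correlated by at most 0.03 between uninfested cultivars, 0.05 between infested cultivars, 0.20 within S plants and 0.39 within R plants. Pairing by number was thus seen in the data between cultivars. Within S plants the ranges overlapped, and within R plants pairing was not shown. The alternatives were the deposited values, median centering, all rows, normexp with an offset of 50, other thresholds, group medians, a filter at the median level, the replicate number as a block, moderation with trend and robust, only the arrays compared, 1 probe set per gene, and each array left out. With 3 arrays a group, precision is limited by their number, and p-values measure the spread between these pools.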

Additional observations from a re-analysis of the deposited data

How the results depend on the processing

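The number of members stayed within 1.5 times of 150 with the deposited values (118), median centering (154), all rows (150), normexp (111), group medians (148) and the filter at the median level (134). With group medians, however, only 110 of the 148 were among the 150. It was 262 at a threshold of 0.8, 52 at 1.5, and 38 when the infested arrays had to lie above the uninfested arrays in both cultivars. Leaving out 1 array gave 103 to 230 members, the lowest without infested R replicate 2 and the highest without infested R replicate 1. The median difference in S plants ran from 2.50 to 3.31 and in R plants from 0.99 to 1.70 when 1 array was left out. With 1 probe set per gene, 140 in all, the medians were 2.73 and 1.32. The count with a cultivar effect, 21, was 13 with the deposited values, 13 with normexp and 6 to 45 with 1 array left out, and 0 members were called higher in R plants by limma in any of these settings. With the replicate block it was 76. The count called in S plants, 89, was 135 with the replicate block and 37 to 114 with 1 array left out; it was 54 without uninfested S replicate 1, 46 without uninfested S replicate 3 and 37 without infested S replicate 1. The count called in R plants was 0 in every setting, the block included, by limma; with the block and no adjustment 140 members had a p under 0.05. Pairing by number was not shown within R plants by the correlations, and not cleanly shown within S plants. Among the members, replicate 2 was still the highest array for 105 in uninfested R and 109 in infested R plants. Among named members the S difference of LOC100802459 ran from −0.30 without uninfested S replicate 3 to 1.87 without uninfested S replicate 1. Single cultivar effects kept their call in 195 tries and lost it in 120, always with the same direction. The causes were not tested. The design could not separate aphids from chamber side, and dim members, 5 of them at control level without aphids, have differences measured from background.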
